A study of Mus musculus with 12 samples.

Results

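The 41 genes described here are type I interferon stimulated genes of the mouse, read as single rows of a liver RNA-seq table of 45777 genes and followed across both genotype labels and both treatments. The list was chosen by name, with results of these same livers already known, so the values of its members are given as a description. Members are counted and named by whether they passed a threshold in the fit across all genes, beside the share of all genes that did, and such a count is not a test of the list. All 41 genes were found in the table, and all 41 passed the filter on low counts in every comparison. Livers came from male C57BL/6 mice of 10 to 12 weeks that had been fasted overnight, in 4 groups of 3: WT littermates with vehicle, WT mice with acetaminophen (APAP, 300 mg/kg BW, i.p.), mice labelled *Gna12* KO with vehicle, and mice labelled *Gna12* KO with APAP. *Gna12* encodes Gα12, the alpha subunit of a heterotrimeric G protein, and for the KO label neither the deleted part of the gene nor a restriction to a cell type is given in the sources used here. Livers were collected 6 h after the injection, and each liver gave a single poly-A library.

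Type I interferons (the interferon alphas and interferon beta) bind a receptor made of IFNAR1 and IFNAR2, and the kinases JAK1 and TYK2 then phosphorylate STAT2. STAT2 and IRF9 are subunits of the complex ISGF3, which binds the interferon stimulated response element (ISRE) in the promoters of its target genes. The targets include sensors of foreign nucleic acid, enzymes that degrade viral RNA or block its translation, the ubiquitin-like protein ISG15 with its enzymes, and brakes such as USP18. A low level of these transcripts is normal in the uninfected liver, where hepatocytes, Kupffer cells and endothelial cells all carry the receptor.

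The core of the ISRE, GAAA followed by any 2 bases and GAAA, was searched on both strands in windows of 300 bases around gene starts (250 before and 50 after), taken from RefSeq on GRCm38.p6. Windows were held for 31 of the 41 genes, and 14 of these 31 (45.2%) contained the core. Over all gene symbols with a window, 1079 of 27025 (3.99%) contained it. Overlapping matches were counted separately, so that *Isg15* held 3 cores in a single run. *Ifit1*, *Ifit3*, *Ifit3b*, *Oas1a* and *Oas1g* held 2 cores each, and 1 site is shown per gene. The sites below were picked from genes that held the core, not by the size of their differences. The letters GAAA recur in all of them because they were the search pattern, so this recurrence is not a result. *Bst2*, *Eif2ak2*, *Oas3* and *Trim30a* also held the core and are not shown. Each is written 5′ to 3′ on the strand on which the core reads as GAAA, with the core in capitals.
Ifit1: cagtgaGAAACTGAAActgaga
Ifit3: aaagtaGAAACTGAAAcagact
Ifit3b: aaagtaGAAACTGAAAcagact
Isg15: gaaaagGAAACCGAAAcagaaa
Rsad2: ttttctGAAAATGAAAgttgga
Oas1a: gaaatgGAAACTGAAAatctac
Oas1g: gaaatgGAAACTGAAAatctac
Stat2: ggaaagGAAACTGAAAccaggg
Ifih1: agaatcGAAACAGAAAccgatc
Ddx58: ccatagGAAATCGAAActgcct

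The *Ifit1* site lay at chr19:34640798-34640819 on the minus strand, with its core beginning 85 bases before the RefSeq gene start. The *Isg15* site (chr4:156200875-156200896, minus strand) began 72 bases before the start, the *Rsad2* site (chr12:26456557-26456578, plus strand) 120 bases before it and the *Stat2* site (chr10:128270270-128270291, minus strand) 222 bases before it. The site of *Oas1a* (chr5:120907524-120907545, minus strand) and that of *Oas1g* (chr5:120887610-120887631, minus strand) carried the same letters, as did those of *Ifit3* (chr19:34583401-34583422, minus strand) and *Ifit3b* (chr19:34607797-34607818, minus strand). In *Ifih1* (chr2:62646208-62646229, minus strand) and *Ddx58* (chr4:40239808-40239829, plus strand) the core lay 32 and 2 bases after the start. *Irf7*, *Irf9*, *Oasl1*, *Oasl2*, *Cmpk2*, *Ifi44*, *Xaf1* and *Lgals3bp* had a window without the core. No window was held for *Usp18* and *Ifi27l2a*. A match of this kind is a description of the sequence and was not tested as a binding site.

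Several of the genes are neighbours. By the GENCODE vM21 annotation of GRCm38, *Ifit2* (chr19:34550694-34576419), *Ifit3* (chr19:34583531-34588731), *Ifit3b* (chr19:34607970-34613401) and *Ifit1* (chr19:34640871-34650009) follow each other on chromosome 19, and 6 of the 41 genes, all of the OAS family, lie on chromosome 5. *Rsad2* (chr12:26442746-26456452) and *Cmpk2* (chr12:26469204-26479837) are adjacent and transcribed away from each other, while *Parp9* (chr16:35938470-35972605) and *Dtx3l* (chr16:35926511-35939151) overlap at their starts on opposite strands. Of the 50-base stretches in the longest *Ifit3* transcript, 51.2% also occurred in *Ifit3b*, and of those in *Oas1a*, 57.6% also occurred in *Oas1g*. Reads from such stretches can be divided between the pair by the counting, so these 4 values are uncertain as separate genes. *Herc6* shared 23.8% of its stretches with the read-through gene *Gm45193*, and *Rtp4* shared 13.6% with *Gm45338*.

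The total count per liver ranged from 49737950 to 69566079, and members had between 6 and 13724 counts. Counts of *Gna12* were 1659 to 3550 in the WT vehicle livers, 1193 to 4373 in WT after APAP, 2472 to 4003 in the KO-labelled vehicle livers and 2489 to 3248 in the KO-labelled livers after APAP. *Gna12* had a log2 fold change of 0.13 ± 0.21 (SE) under the KO label over both treatments, and the groups are named by their labels throughout. Replicate 1 of WT after APAP stood apart from the other livers: its TMM factor was 0.75, and its hemoglobin and *Alas2* transcripts summed to 17366 CPM against 253 to 749 in the other 11 livers. In that liver, genes whose longest transcript was over 5 kb lay at a median of -0.34 (log2) relative to the other WT livers given APAP, and genes under 1 kb at 0.77. Replicate 2 of WT with vehicle had 381 CPM of *Stat3* against 85.1 and 92.1 in the other WT vehicle livers. The sign of the *Gna12* difference rested on these 2 livers, which had the lowest WT values: without both it was -0.15 ± 0.10, with 64.996 CPM in WT and 62.8 CPM under the label with vehicle, and 54.3 and 46.02 CPM after APAP. This alternative was chosen after seeing the data, and *Gna12* was not called with or without the 2 livers. No pair of livers within a group was alike enough to be a single library deposited more than once.

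Levels differed widely among the members. On the TPM scale, which allows genes of different length to be compared, *Bst2*, encoding the membrane protein tetherin that holds budding virus at the cell surface, had the highest mean over the 12 livers at 167 TPM. *Lgals3bp*, a secreted glycoprotein, followed at 52.5 TPM and *Stat2* at 25.3 TPM, whereas *Oas3*, an enzyme that makes the activator of RNase L, was lowest at 0.206 TPM. All levels below are CPM (counts scaled to the same library size, with TMM factors), and fold changes are log2 values from edgeR with their SE, where 1 stands for a 2-fold difference. In bulk liver, a higher level in each cell cannot be told apart from a larger share of cells that express the gene.

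The first question was whether the genotype labels differed at rest. With vehicle, 39 of the 41 genes were higher under the KO label than in WT, and the 2 others, *Stat2* and *Mx2*, were both at -0.03. The median log2 fold change of the members was 0.73, while the median of all 15262 genes tested was 0.01 and 51.1% of them were higher. After adjustment over all genes, edgeR called 0 of the 41, where the background of higher calls was 0.0131% of genes. At an unadjusted p under 0.05, 29 of the 41 were higher and 0 lower, beside 4.31% of all genes that were higher. The 3 KO-labelled livers did not overlap the 3 WT livers, and lay above them, for 27 members, beside 7.46% of all genes. DESeq2's Wald test called 7 members (*Ifit1*, *Lgals3bp*, *Cmpk2*, *Usp18*, *Irf7*, *Ifi27l2a* and *Xaf1*), where its background was 0.446%. Because the list was selected with these livers in view, these counts describe it and are not evidence for it.

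**Figure D1:**
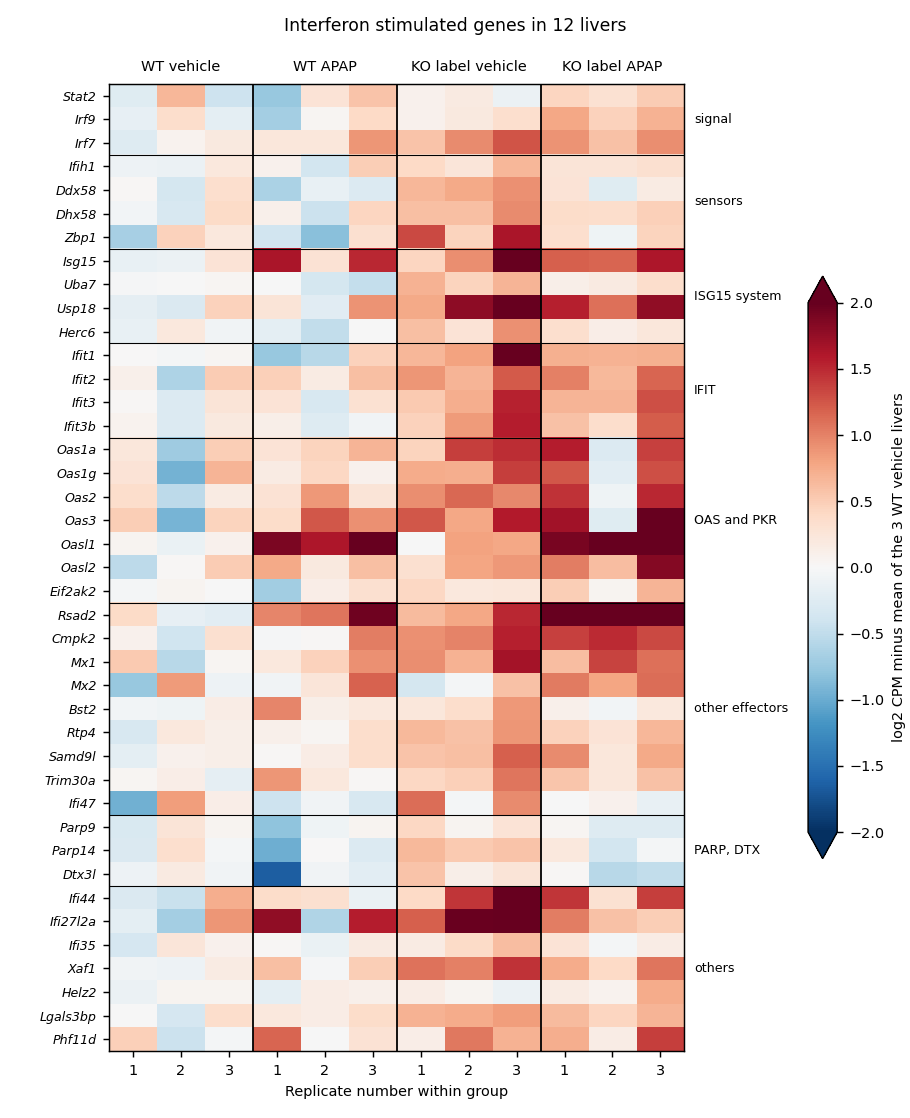
Each cell shows 1 of the 41 genes (rows, grouped by role) in 1 of the 12 livers (columns, 3 per group) as log2 CPM minus the mean of the 3 WT vehicle livers, with colours limited to -2 to 2. Columns of the KO-labelled livers are mostly red with either treatment, most of all replicate 3 with vehicle, while *Oasl1* and *Rsad2* are red in all 6 livers given APAP.

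All 4 genes of the ISG15 system were higher under the KO label with vehicle. *Isg15* (gene ID 100038882), encoding the ubiquitin-like modifier, had 3.77, 3.84 and 5.03 CPM in the WT vehicle livers and 5.64, 7.96 and 18.2 CPM in the KO-labelled vehicle livers, a log2 fold change of 1.32 ± 0.41. Every KO-labelled liver lay above every WT liver, but replicate 3 set much of the size, and without it the value was 0.69. *Usp18* (gene ID 24110), the protease that removes ISG15 and also blocks IFNAR2, had 4.83, 4.48 and 7.55 CPM in WT and 9.22, 19.0 and 27.2 CPM under the KO label, a log2 fold change of 1.71 ± 0.39. The groups of *Usp18* did not overlap, and its difference exceeded the spread of each. *Uba7*, the enzyme that activates ISG15, differed by 0.62 ± 0.15 and *Herc6*, the ligase of the mouse, by 0.61 ± 0.20, also without overlap.

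The IFIT genes, whose proteins bind viral RNA that lacks the host cap marks, were all higher under the KO label with vehicle, by 0.89 ± 0.32 (*Ifit2*) to 1.29 ± 0.34 (*Ifit1*). *Ifit1* (gene ID 15957) had 6.72, 6.56 and 6.87 CPM in WT and 10.7, 11.7 and 27.0 CPM under the KO label. The WT values were within a narrow band, and the KO-labelled values were above it in each liver. Without replicate 3 of the KO-labelled vehicle livers, the fold change of *Ifit1* was 0.74. *Ifi44*, a cytoplasmic protein of uncertain function, had 0.770, 0.692 and 1.60 CPM in WT and 1.26, 2.61 and 4.46 CPM under the label, 1.44 ± 0.51, and here the groups overlapped. *Ifi27l2a*, a small interferon-induced membrane protein, had the largest difference with vehicle, 1.97 ± 0.52, from 0.751, 0.524 and 1.62 CPM to 2.02, 3.50 and 5.88 CPM. Its levels were low, but the groups did not overlap.

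Of the sensors, *Ifih1* (MDA5, which binds long double-stranded RNA) had 18.5, 18.3 and 23.0 CPM in WT and 26.0, 23.4 and 31.4 CPM under the KO label with vehicle, a log2 fold change of 0.44 ± 0.16. *Ddx58* (RIG-I, which binds the triphosphate end of viral RNA) differed by 0.75 ± 0.19 and *Dhx58* (LGP2, which regulates both) by 0.69 ± 0.21. All 3 helicases were without overlap between the labels. *Zbp1*, a sensor of left-handed nucleic acid that can trigger necroptosis, had 2.08, 4.63 and 3.85 CPM in WT and 8.36, 4.57 and 10.5 CPM under the label, 1.15 ± 0.38. A KO-labelled liver fell within the WT range for *Zbp1*.

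Of the transcription factors, *Stat2* and *Irf9* overlapped between the labels with vehicle and *Irf7* did not. *Stat2* (gene ID 20847) had 50.01, 93.7 and 44.3 CPM in WT and 63.0, 67.2 and 54.4 CPM under the label, -0.03 ± 0.28, with the high WT value in the same liver that had the high *Stat3*. *Irf9* had 27.6, 39.5 and 26.8 CPM against 32.8, 35.4 and 38.9 CPM, 0.19 ± 0.17, and its groups overlapped. *Irf7*, the factor that amplifies interferon transcription and is itself a target, had 10.8, 13.5 and 14.8 CPM in WT and 19.2, 24.8 and 31.0 CPM under the label. The *Irf7* groups were separate, with a log2 fold change of 0.94 ± 0.20.

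All 7 genes of the oligoadenylate synthetase family and PKR (*Eif2ak2*, the kinase that stops translation on double-stranded RNA) were higher under the KO label with vehicle, by 0.28 ± 0.12 (*Eif2ak2*) to 1.18 ± 0.49 (*Oas3*), with a median of 0.85. Among other effectors, *Mx1*, a dynamin-like antiviral GTPase, differed by 1.11 ± 0.39 and *Cmpk2*, a mitochondrial nucleotide kinase, by 1.16 ± 0.27. *Xaf1*, a pro-apoptotic antagonist of XIAP, had 5.30, 5.20 and 6.27 CPM in WT and 11.8, 11.3 and 15.3 CPM under the label, 1.19 ± 0.17. The spread of *Xaf1* within each group was small beside that gap. *Helz2*, a transcriptional coactivator of nuclear receptors, was at 0.03 ± 0.13 and lay among the members that did not differ beyond their spread.

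**Figure D2:**
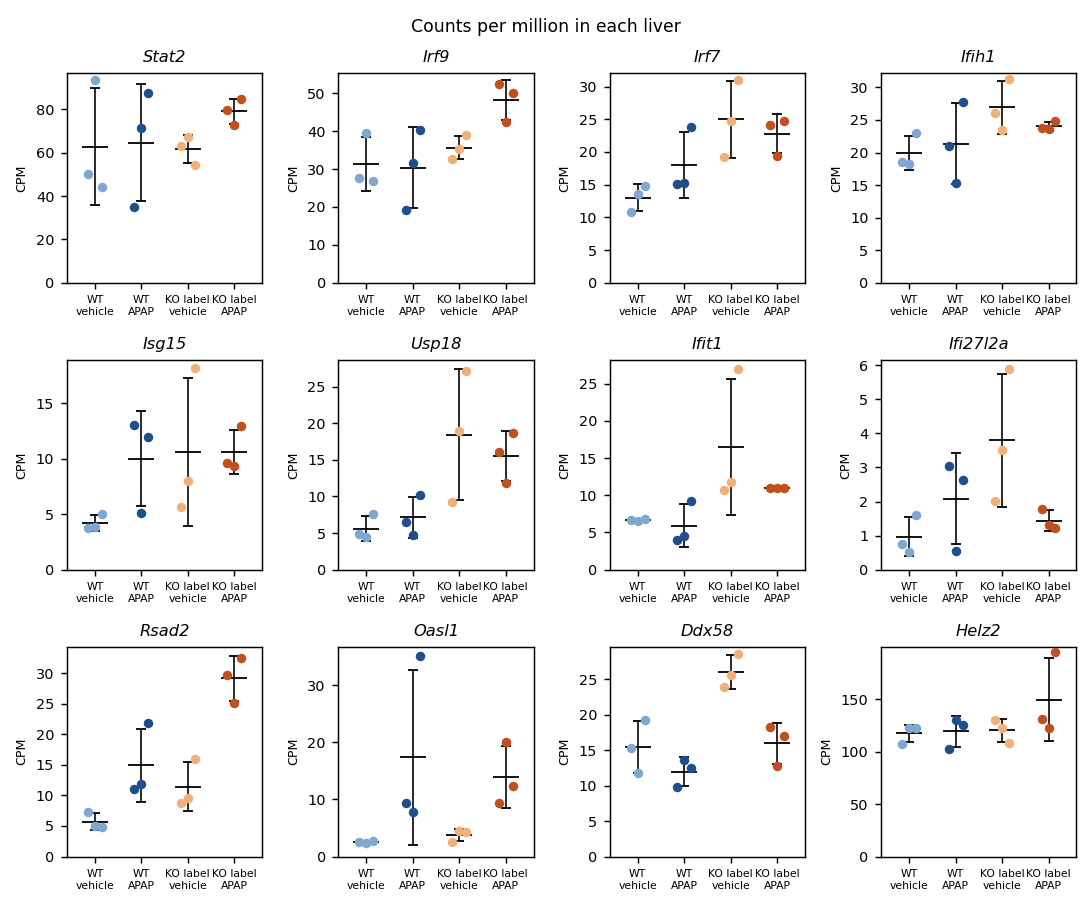
CPM of 12 members in each liver (points, linear axes from 0), with the mean and SD of the 3 livers per group (bars). *Usp18*, *Ifit1*, *Irf7* and *Ddx58* show KO-labelled vehicle livers above all WT vehicle livers, *Stat2* and *Helz2* show overlapping groups, and *Oasl1* and *Rsad2* are higher after APAP under both labels.

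A single liver carried part of the vehicle difference. Replicate 3 of the KO-labelled vehicle livers was the highest of its group for 30 of the 41 members, and without it the count at an unadjusted p under 0.05 went from 29 to 18 (3.38% of all genes were higher at that p then) and the median from 0.73 to 0.60. The other livers of the group kept the direction, since leaving out any 1 of the 6 livers left 38 to 41 members higher. Without replicate 2 of WT with vehicle, the liver high in *Stat2* and *Stat3*, all 41 were higher.

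The same question was asked after APAP, in 6 other livers. There 38 of the 41 genes were higher under the KO label, and *Oasl1*, *Ifi27l2a* and *Bst2* were lower. The median was 0.42, while that of all 16174 genes was -0.02 and 47.8% of them were higher. The edgeR test called 0 members after adjustment (background of higher calls, 0.0185%), DESeq2's Wald test also called 0 (background, 0.0447%), and at an unadjusted p under 0.05 there were 8 higher and 0 lower, beside 1.03% of all genes that were higher. The livers did not overlap, with the KO label higher, for 11 members, beside 4.87% of all genes. The unadjusted count hung on single livers: it was 4 without WT replicate 2, and 5, 13 and 3 without KO-labelled replicates 1, 2 and 3, where the shares of all genes were 2.18%, 0.594%, 1.4% and 0.441%. Without WT replicate 1, the liver that stood apart, 35 of 41 were higher and the median was 0.35. KO-labelled replicate 2 was the lowest of its group for 33 members, and without it 25 were separate from WT, while without WT replicate 3 the number was 21. With fewer livers more genes are separate by construction, and over all genes the shares at these settings were 11.5% and 11.8%.

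*Usp18* had the largest difference after APAP, with 6.53, 4.68 and 10.3 CPM in WT and 16.0, 11.8 and 18.7 CPM under the label, 1.11 ± 0.31. *Cmpk2* had 2.32, 2.42 and 4.88 CPM against 6.21, 6.76 and 5.99 CPM, 0.97 ± 0.32. *Ifit1* had 3.95, 4.54 and 9.24 CPM against 11.0, 10.9 and 11.0 CPM, 0.88 ± 0.32. These 3 genes were separate between the labels after APAP as they were with vehicle. *Rsad2* (viperin, a radical enzyme that makes a chain-terminating nucleotide; gene ID 58185) was separate too, with 11.1, 11.8 and 21.8 CPM in WT and 29.7, 25.2 and 32.5 CPM under the label, 0.95 ± 0.27. *Ifi44* differed by 0.93 ± 0.39, from 1.23, 1.20 and 0.859 CPM to 2.62, 1.18 and 2.53 CPM, and overlapped in a single liver.

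Some members that were separate between the labels with vehicle overlapped after APAP. *Isg15* had 13.03, 5.10 and 11.9 CPM in WT and 9.65, 9.37 and 12.9 CPM under the label, 0.07 ± 0.34. *Irf7* had 15.1, 15.2 and 23.8 CPM against 24.2, 19.4 and 24.8 CPM, 0.33 ± 0.22. *Ifih1* had 21.0, 15.4 and 27.7 CPM against 23.7, 23.6 and 24.8 CPM, 0.16 ± 0.22. In all 3 the groups overlapped. *Irf9*, which overlapped with vehicle, was separate after APAP: 19.2, 31.5 and 40.4 CPM in WT lay below 52.5, 42.3 and 49.97 CPM under the label, 0.66 ± 0.26. *Stat2* had 34.9, 71.5 and 87.4 CPM against 79.4, 72.9 and 84.6 CPM, 0.28 ± 0.30, and without WT replicate 1, in which both *Stat2* and *Irf9* were lowest, the values were -0.01 for *Stat2* and 0.42 for *Irf9*.

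**Figure D3:**
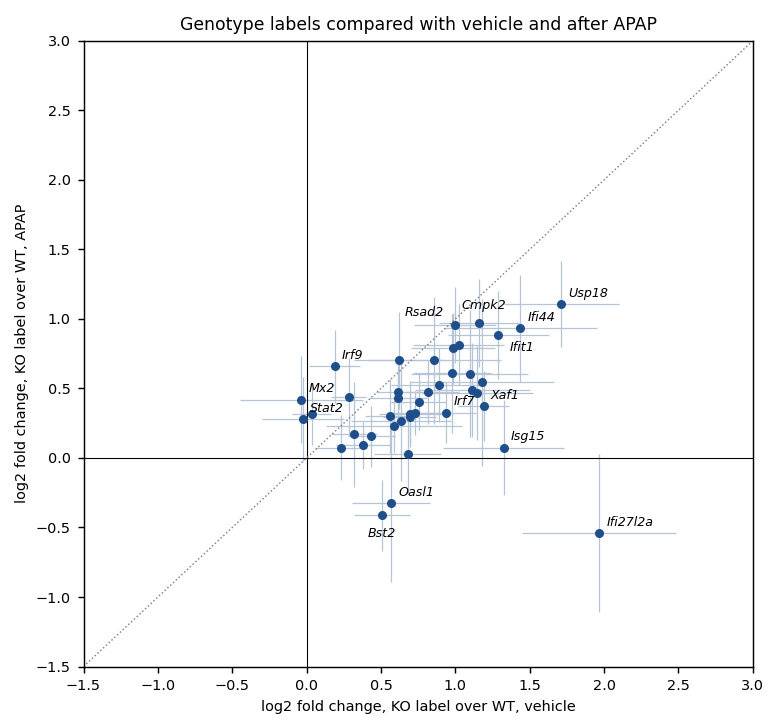
Log2 fold change of each of the 41 genes, KO label over WT, with vehicle (horizontal axis) and after APAP (vertical axis), with bars of 1 SE and a dotted line of equal change. Of the 41, 36 lie above 0 on both axes and 35 below the dotted line, with *Ifi27l2a* and *Isg15* farthest to the right of it.

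The vehicle and APAP comparisons shared no liver. In both, 36 of the 41 genes were higher under the KO label, and the difference was larger with vehicle than after APAP for 35. Across the 41 genes the fold changes had a Pearson r of 0.25 and a Spearman rho of 0.46, given as a description because the genes were measured in the same libraries. Averaged over treatments in a fit on all 12 livers, all 41 were higher under the KO label, with a median of 0.58 against 0.01 for all genes. For that average, edgeR called 0 members (background of higher calls, 0.00606%), 27 were higher at an unadjusted p under 0.05 (3.17% of all genes) and DESeq2's Wald test called 10 (0.212%). *Usp18* led at 1.42 ± 0.28, followed by *Ifi44* at 1.19 ± 0.34, *Ifit1* at 1.09 ± 0.26, *Cmpk2* at 1.07 ± 0.22 and *Rsad2* at 0.98 ± 0.21. All 6 KO-labelled livers lay above all 6 WT livers for 6 members, *Ifit1*, *Ifit2*, *Ifit3*, *Ifit3b*, *Uba7* and *Lgals3bp*, beside 0.115% of all genes. That number was 13 without WT replicate 3 after APAP and 12 without KO-labelled replicate 2 after APAP, where the shares of all genes were 0.254% and 0.291%.

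**Figure D4:**
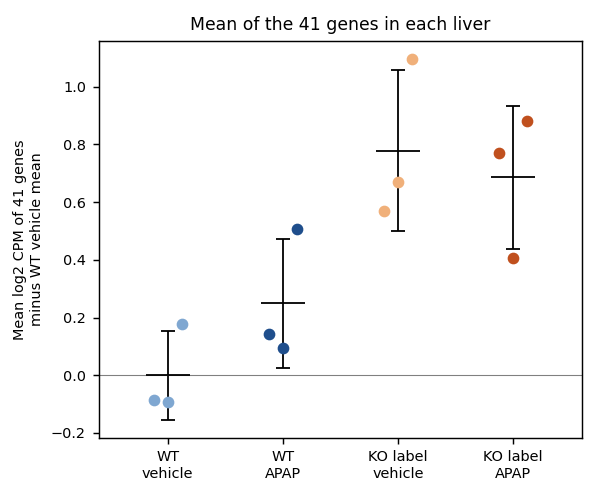
Mean log2 CPM of the 41 genes in each liver (points), relative to the mean of the 3 WT vehicle livers, with the mean and SD per group (bars, n = 3). The KO-labelled livers reach from 0.41 to 1.10, and WT replicate 3 after APAP, at 0.51, lies above the lowest of them.

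As a mean over the 41 genes, relative to the WT vehicle livers, the level was 0.25 ± 0.22 (SD, n = 3) in WT after APAP, 0.78 ± 0.28 in the KO-labelled vehicle livers and 0.69 ± 0.25 in the KO-labelled livers after APAP, with an SD of 0.15 in the WT vehicle livers. The group with the highest mean CPM was the KO-labelled vehicle group for 27 members, the KO-labelled APAP group for 13 and WT after APAP for 1. WT with vehicle was the lowest group for 27 and the highest for none.

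The response to APAP itself was read next, with the share of all genes called beside the counts of members. In WT livers, edgeR called 0 of the 41 after adjustment, where 1.62% of all genes were called higher and 0.427% lower. At an unadjusted p under 0.05, 3 were higher (*Oasl1*, *Rsad2* and *Isg15*), beside 10.7% of all genes, and 0 were lower. DESeq2's Wald test called the same 3 genes, where it called 4.82% of all genes higher. The members' median was 0.16, with 29 of 41 higher, while the median of all genes was 0.03.

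*Oasl1* (gene ID 231655), an oligoadenylate synthetase-like protein that restrains the translation of *Irf7*, had the largest response. It went from 2.59, 2.28 and 2.66 CPM with vehicle to 9.31, 7.75 and 35.0 CPM after APAP in WT, 2.80 ± 0.58. Under the KO label it went from 2.49, 4.42 and 4.29 CPM to 9.42, 20.0 and 12.4 CPM, 1.92 ± 0.32. All 6 livers given APAP were above all 6 vehicle livers, and WT replicate 3 was far above the rest, so that without it the WT value was 1.77. *Rsad2* went from 7.31, 5.03 and 4.83 CPM to 11.1, 11.8 and 21.8 CPM in WT, 1.39 ± 0.32. Under the KO label it went from 8.70, 9.64 and 16.0 CPM to 29.7, 25.2 and 32.5 CPM, 1.36 ± 0.23. The responses of *Rsad2* under the 2 labels differed by -0.03 ± 0.42. *Cmpk2*, its neighbour on chromosome 12, was at 0.41 ± 0.38 in WT and 0.23 ± 0.20 under the label.

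*Isg15* differed from vehicle in WT by 1.26 ± 0.36 and under the KO label by 0.02 ± 0.39, where replicate 3 of the vehicle livers was the highest of the 6. Without that replicate the latter value was 0.66. *Oas3* was at 0.83 ± 0.55 in WT, from 0.394, 0.126 and 0.379 CPM to 0.358, 0.691 and 0.541 CPM, and overlapped. *Ifi27l2a* was at 1.11 ± 0.68 in WT, where its 3 livers after APAP had 3.04, 0.558 and 2.64 CPM.

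Under the KO label, edgeR called 8 of the 41. The 4 called higher were *Oasl1*, *Rsad2*, *Mx2* and *Irf9*, where 13% of all genes were called higher, and the 4 called lower were *Ddx58*, *Parp14*, *Dtx3l* and *Ifi27l2a*, where 9.6% of all genes were called lower. Both shares of the members were close to these backgrounds, and their median was -0.16. *Mx2*, a dynamin-like GTPase related to MX1, went from 5.14, 6.37 and 9.83 CPM to 13.5, 11.3 and 14.2 CPM, 0.88 ± 0.24. In WT, *Mx2* went from 3.87, 11.8 and 6.11 CPM to 6.24, 7.76 and 14.9 CPM, and these groups overlapped. *Irf9* rose by 0.44 ± 0.13 under the label.

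*Ifi27l2a* fell from 2.02, 3.50 and 5.88 CPM to 1.78, 1.31 and 1.22 CPM under the KO label, a log2 fold change of -1.39 ± 0.38. *Ddx58* was at -0.69 ± 0.16, *Dtx3l*, a ubiquitin ligase that partners PARP9, at -0.63 ± 0.19, and *Parp14*, a mono-ADP-ribosyltransferase, at -0.62 ± 0.16. *Zbp1*, which did not pass, had 8.36, 4.57 and 10.5 CPM with vehicle and 4.21, 3.15 and 4.58 CPM after APAP, -0.96 ± 0.30. In these 5 genes the values of the KO-labelled livers after APAP overlapped those of the WT vehicle livers. *Oasl1* and *Rsad2* were called in all 16 settings run for this comparison, *Ddx58* in 14, *Parp14* in 11, *Mx2* and *Ifi27l2a* in 9, *Dtx3l* in 8 and *Irf9* in 6. The count of called members was 4, 4 and 3 without vehicle replicates 1, 2 and 3. Without APAP replicates 1, 2 and 3 the count was 5, 6 and 3. The shares of all genes called at these settings were not counted, so the fall cannot be read as particular to the members. Without vehicle replicate 3 no member was called lower, and the median was 0.09.

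**Figure D5:**
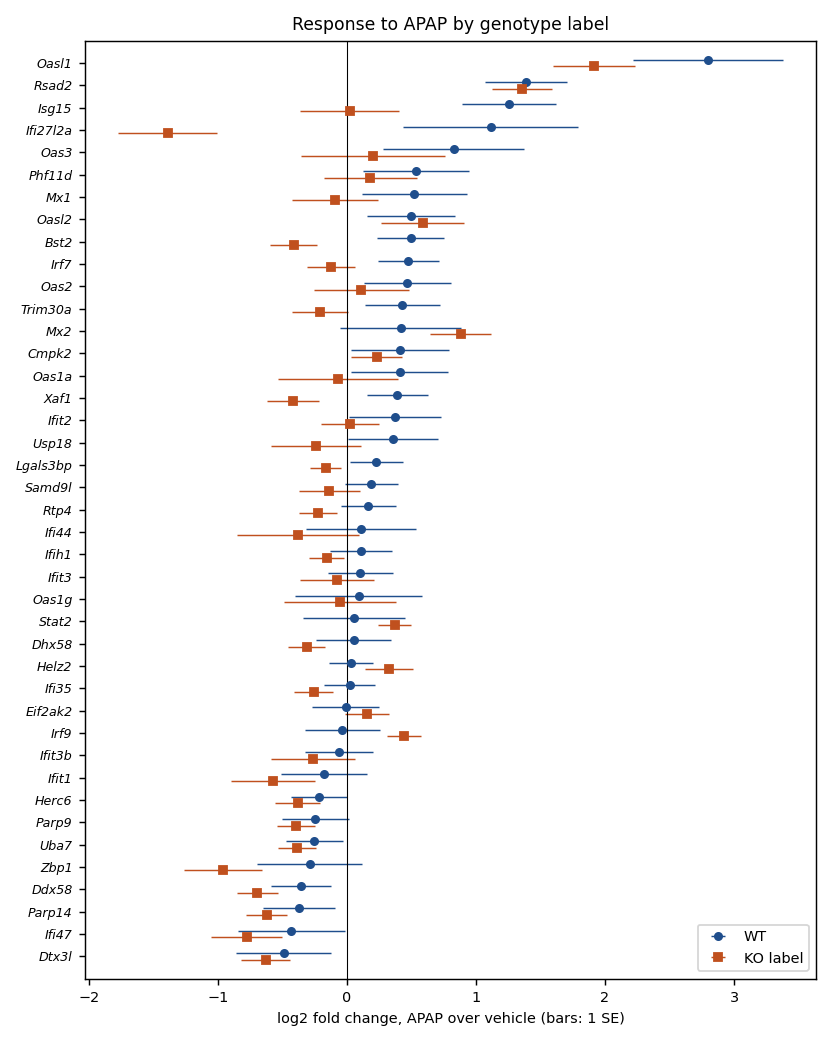
Log2 fold change of APAP over vehicle for each of the 41 genes in WT (circles) and under the KO label (squares), with bars of 1 SE, ordered by the WT value. *Oasl1* and *Rsad2* are to the right under both labels, *Dtx3l*, *Parp14* and *Ddx58* to the left, and the 2 symbols of *Ifi27l2a* lie on opposite sides of 0.

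Averaged over genotype labels, APAP raised *Oasl1* by 2.35 ± 0.37 and *Rsad2* by 1.36 ± 0.21, the 2 members called higher (14.1% of all genes), and lowered *Ddx58* (-0.53 ± 0.14) and *Parp14* (-0.51 ± 0.17), the 2 called lower (11.1% of all genes). *Oasl1*, *Rsad2* and *Ddx58* passed in all 22 settings run and *Parp14* in 10. *Mx2* was at 0.64 ± 0.29, *Zbp1* at -0.63 ± 0.27 and *Isg15* at 0.63 ± 0.29, without passing. The median of the 41 was 0.02.

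The difference between the responses was tested directly as an interaction of genotype label and treatment. The edgeR test called 0 of the 41 and 0% of the 16509 genes tested, DESeq2's Wald test also called 0 members (0.0303% of all genes), and at an unadjusted p under 0.05 there were 3 members (*Ifi27l2a*, *Bst2* and *Xaf1*), beside 5.14% of all genes. In 35 of the 41 the sign was negative, that is, the response to APAP was lower under the KO label, while 48.6% of all genes had a positive sign. This is the same contrast as the larger genotype difference with vehicle given above, not a further observation. The median of the 41 was -0.34, and without replicate 3 of the KO-labelled vehicle livers it was -0.19. *Ifi27l2a* had the largest estimate, -2.50 ± 0.84, followed by *Isg15* at -1.24 ± 0.59 and *Bst2* at -0.90 ± 0.33. Without replicate 3 of the KO-labelled vehicle livers the *Isg15* estimate was -0.60. *Bst2* had 65.8, 64.6 and 76.3 CPM in the WT vehicle livers, 135, 74.2 and 79.3 CPM in WT after APAP, 80.3, 87.8 and 126 CPM in the KO-labelled vehicle livers and 74.0, 66.2 and 79.2 CPM in the KO-labelled livers after APAP. The value of 135 CPM was from WT replicate 1, and without that liver the *Bst2* estimate was -0.56. *Xaf1* was at -0.80 ± 0.31, with 8.46, 5.50 and 7.84 CPM in WT after APAP and 9.37, 7.37 and 11.8 CPM in the KO-labelled livers after APAP.

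The 41 genes were unequal in how far they followed each other. The Pearson correlation of each member's log2 CPM with the mean of the 40 others over the 12 livers had a median of 0.72, from 0.19 (*Dtx3l* and *Stat2*) to 0.96. After the group means were subtracted, the median was 0.61 and the range -0.05 (*Ifi47*) to 0.89. These livers share a library preparation and the members were chosen together, so the values describe the list. Of 10876 other genes with a mean log2 CPM of at least 1, the 10 most like the members' mean were *Zc3hav1* (r = 0.90), *Gm20559*, *Gbp6*, *Gbp3*, *Trim30d*, *Orc5*, *Zfp943*, *Trim12a*, *Dnajc10* and *Zfp994* (r = 0.80). *Zc3hav1*, the zinc-finger antiviral protein, differed between the labels by 0.42 ± 0.14 with vehicle and by 0.33 ± 0.17 after APAP. *Gbp6*, an interferon-induced GTPase, differed by 1.75 ± 0.23 and 0.79 ± 0.22.

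The steps above the targets were read from lists of pathway genes that are no members. Of 21 interferon genes, none had more than 8 counts in any liver, and the 21 together had 0 to 11 counts per liver, so a difference in them was not detectable at this depth. Of 11 receptor and JAK-STAT genes, 10 were tested with vehicle, and 6 were higher and 4 lower under the KO label, with a median of 0.07. With APAP under the KO label, 3 of the list were called higher, beside 13% of all genes. These were *Ifngr1*, the ligand-binding chain of the interferon gamma receptor (0.84 ± 0.13), *Stat3* (0.97 ± 0.17) and *Jak1* (0.57 ± 0.11). *Jak2* was called higher by APAP only when both labels were averaged (0.59 ± 0.14). *Ifnlr1*, the interferon lambda receptor, was called in that average as well (2.63 ± 0.87) but had at most 0.334 CPM. It did not pass the filter on low counts in the APAP comparison of either label, where 10 of the 11 were tested. In the average, 4 of the 11 were called higher, beside 14.1% of all genes. The genotype label moved none of the list past the threshold in any comparison, where at most 0.0185% of all genes were called higher. At an unadjusted p under 0.05, 1 gene of the list was higher and 0 lower with vehicle, beside 4.31% of all genes that were higher. The same counts, 1 and 0, were found after APAP, beside 1.03%, and averaged over treatments, beside 3.17%.

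Of 16 sensors and adaptors tested, 11 were higher and 5 lower under the KO label with vehicle. None was called by genotype, where only 0.0131% of all genes were called higher with vehicle and 0.0185% after APAP. With so few calls over all genes, the absence of calls in a short list says little. *Tbk1*, the kinase that activates IRF3, rose with APAP by 0.67 ± 0.12 over both labels, and *Tmem173* (STING) by 1.20 ± 0.31. Over both labels 2 of the 16 were called higher, beside 14.1% of all genes. Among 5 other IRF genes, *Irf8* alone was called, by APAP (0.69 ± 0.17 over both labels), beside the same 14.1%. Of 7 inhibitors of the pathway, 2 were called higher with APAP under the KO label, beside 13% of all genes. These were *Socs1* (3.51 ± 0.53) and *Socs3* (2.32 ± 0.38). *Ptpn6*, encoding the phosphatase SHP-1, fell over both labels by 0.37 on the log2 scale, where 11.1% of all genes were called lower. *Socs3* was at -2.69 ± 0.99 under the KO label with vehicle, where WT replicate 2 alone had 125 CPM against 5.73 and 15.5 CPM in the other WT livers.

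Another 54 interferon stimulated genes were listed from general knowledge, with the same earlier results known. With vehicle, 44 of the 49 tested were higher under the KO label, with a median of 0.51. At an unadjusted p under 0.05, 24 were higher, beside 4.31% of all genes, and 0 were lower, and 0 were called after adjustment. After APAP, 37 of 52 were higher, with a median of 0.19, and 2 were higher at an unadjusted p under 0.05, beside 1.03% of all genes. With APAP under the KO label, 9 of the 51 tested were called lower, beside 9.6% of all genes, and 1 higher, beside 13%. Among those called lower were *Mov10*, an RNA helicase (-0.90 ± 0.13), and *Trim14*, an adaptor of antiviral signalling (-0.71 ± 0.14), with *Tdrd7* at -0.57 ± 0.11 and *Phf11c* at -1.42 ± 0.34. *Tor3a* was the gene called higher (0.91 ± 0.20).

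Of 11 genes of the interferon gamma response and antigen presentation, 10 were higher under the KO label with vehicle (median 0.69) and 5 after APAP (median -0.003). With vehicle, 6 were higher at an unadjusted p under 0.05, beside 4.31% of all genes, and 0 were called. *Psmb8*, a subunit of the immunoproteasome, was at 0.69 ± 0.21 with vehicle and *Psmb9*, another, at 0.77 ± 0.24. APAP lowered both under the KO label, by -0.91 ± 0.13 and -1.61 ± 0.19, and lowered *Tapbp* (-0.51 ± 0.11) and *Psmb10* (-0.75 ± 0.11) with them. In that comparison 6 of the 11 were called lower, beside 9.6% of all genes, and 1 higher, beside 13%. *Cxcl10*, the chemokine that draws activated T cells, was called higher after APAP under both labels, by 4.74 ± 0.65 in WT and 2.57 ± 0.57 under the label. In WT it was the 1 gene of the 11 called higher, beside 1.62% of all genes. It had 0.901, 1.22 and 0.539 CPM in the WT vehicle livers and 2.38, 1.62 and 2.17 CPM in the KO-labelled vehicle livers, a log2 fold change of 1.21 ± 0.34.

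Markers of other liver cells were read beside these values. The 5 hepatocyte markers, *Alb* among them, summed to 58654 to 128009 CPM over the 12 livers, as the tissue label has it. With vehicle, 5 of 6 Kupffer cell markers (*Clec4f* among them) were higher under the KO label, with a median of 0.38 and summed levels of 80.2 to 129 CPM in WT and 107 to 183 CPM under the label. All 4 stellate cell markers were higher there too, with a median of 0.56 and sums of 142 to 165 CPM against 199 to 242 CPM. After APAP, where 38 members were higher under the label, 6 of 6 Kupffer cell markers were lower (median -0.55), and 3 of 4 stellate cell markers were lower. Markers of plasmacytoid dendritic cells, the main source of interferon alpha, summed to at most 2.58 CPM in any liver. Of the T and NK cell markers, 3 of the 4 tested were higher under the KO label with vehicle, with a median of 1.10. At an unadjusted p under 0.05, 2 were higher (*Cd3e* and *Nkg7*), beside 4.31% of all genes. After APAP 2 of the 4 T and NK cell markers tested were higher, with a median of -0.45. Their sums were low, 0.399 to 1.05 CPM in WT and 0.798 to 2.96 CPM under the label with vehicle, and these ranges overlapped. B cell markers were higher in 3 of 3 tested with vehicle (median 0.49) and lower in 4 of 4 after APAP (median -1.42), and sinusoidal endothelial markers were higher in 2 of 4 (median 0.18) and lower in 4 of 4 (median -0.26). Erythroid markers were higher in 4 of 5 with vehicle (median 0.74) and lower in 5 of 5 after APAP (median -4.18). The latter rested on WT replicate 1, with a sum of 17366 CPM. The other WT livers after APAP had 376 and 334 CPM, within the 253 to 452 CPM under the label. For B cell markers, WT replicate 1 after APAP had 4.87 CPM, and the other WT livers 2.29 and 0.795 CPM. Monocyte markers were higher in 2 of 2 tested with vehicle (median 0.97) and lower in 4 of 4 after APAP (median -1.70). Their sum was at most 3.18 CPM in any liver. Cholangiocyte markers were lower in 3 of 4 with vehicle (median -0.33) and after APAP (median -0.45). Hepatocyte markers were lower in 3 of 5 with vehicle (median -0.10) and in 4 of 5 after APAP (median -0.42). Neutrophil markers summed to 1.16 to 17.9 CPM in WT and 1.42 to 2.44 CPM under the label with vehicle. After APAP they summed to 11.7 to 125 CPM in WT and 1.15 to 7.83 CPM under the label. The 17.9 CPM was from WT replicate 2 with vehicle and the 125 CPM from WT replicate 1 after APAP. The other WT livers had 1.95 and 1.16 CPM with vehicle and 11.7 and 20.8 CPM after APAP. The part of these cells in the levels of the 41 genes was not tested.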

How the data were processed

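Poly-A RNA of 12 mouse livers was sequenced in paired ends on an Illumina NovaSeq after stranded TruSeq preparation. The processing notes name FastQC 0.11.7, Trimmomatic 0.38, HISAT2 2.1.0, Bowtie2 2.3.4.1, StringTie 2.1.3b and mm10 (GRCm38) without their roles, and the strand setting of the counting is not given in the sources used here. The authors deposited read counts per gene without normalization. The authors also deposited FPKM values, which were not used, and TPM values, which were used for levels between genes and for an alternative test. Of the sample columns, 0 were left unassigned.

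The 41 members and all gene lists were chosen with earlier results of these data known. Per-liver values are given for the 5 members with the largest absolute fold change in each comparison and for 6 with central roles (*Stat2*, *Irf7*, *Irf9*, *Isg15*, *Usp18* and *Ifih1*). Of each pathway list, members past the threshold are named (at most 5, by p), which were chosen by their values.

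Counts were scaled by TMM, filtered with filterByExpr and tested by the quasi-likelihood test of edgeR 4.0.16 in R 4.3.3, and called at a Benjamini-Hochberg adjusted p under 0.05, adjusted across every gene that entered the fit. Pairwise comparisons used the 6 livers compared, and the interaction and averages used all 12. SE is the absolute log2 fold change divided by the square root of F. Log2 CPM used a prior count of 2. Alternatives were DESeq2 1.42.0 (size factors, Wald test), limma 3.58.1 on log2(TPM + 1) or log2(TPM + 0.1) after quantile normalization, other filters, a shared fit, a replicate block and each liver left out. The scripts were tested on simulated data. Each liver is a separate mouse. Total counts of 49737950 to 69566079 per liver set the precision, and the number of livers limits it further.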

Additional observations from a re-analysis of the deposited data

How the results depend on the processing

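Medians and counts of members kept their direction and stayed within 1.5 times of the reported count under most alternatives. DESeq2's Wald test called 3 members for APAP in WT, 7 for the KO label with vehicle and 10 for the KO label averaged over treatments, where edgeR called 0; over all genes it called 4.82%, 0.446% and 0.212% higher. The fit on all 12 livers called 2 for APAP in WT and 3 for APAP under the KO label, where limma on log2(TPM + 0.1) called 5 in place of 8. Without WT replicate 1 after APAP and WT replicate 2 with vehicle, an alternative added after seeing the data, 7 in place of 4 members were called for APAP averaged over labels. For the fit on all 12 livers, for limma and for the fit without these 2 livers, the shares of all genes called were not counted. These changes in the count of members therefore have no background beside them. The cause was not tested.

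Liver numbers gave no pairing: deviations of same-numbered livers correlated between -0.26 and 0.10, over 0.1 in 0 of 18 pairs. With the replicate block, 31 members were higher with vehicle and 7 after APAP at an unadjusted p under 0.05, and 7 were called for APAP under the KO label. The shares of all genes with the block were not counted, so these counts have no background beside them.

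With each liver left out, called members ranged from 0 to 2 (APAP in WT), 3 to 6 (APAP under the KO label) and 3 to 6 (APAP averaged), and were 0 to 0 in the other comparisons. The shares of all genes called were not counted at these settings. Medians ranged from 0.01 to 0.28 (APAP in WT), -0.27 to 0.094 (APAP under the KO label), 0.60 to 0.91 (KO label with vehicle), 0.30 to 0.55 (KO label after APAP), -0.42 to -0.19 (interaction), -0.04 to 0.14 (APAP averaged) and 0.51 to 0.68 (KO label averaged). Members higher at an unadjusted p ranged from 18 to 30 with vehicle, 3 to 13 after APAP and 22 to 28 averaged. Over all genes these shares ranged from 3.21% to 4.91%, 0.441% to 2.18% and 2.38% to 4.83%. Members higher in sign ranged from 38 to 41, 35 to 38 and 39 to 41, and members without overlap from 27 to 33, 12 to 25 and 6 to 13, numbers that leaving out a liver raises for all genes as well. Members with few counts, such as *Oas3* with 6 in a liver, are limited by depth.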
